A study of Mus musculus with 36 samples.

Results

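The 9 cortical layer transcription factors Cux1, Cux2, Rorb, Bcl11b, Fezf2, Tbr1, Foxp2, Sox5 and Tle4 were examined in primary mouse cortical cultures treated with dexamethasone (DEX). They were chosen by name as identity factors of cortical projection neurons, a rule that uses no measured value, although earlier results of these data were known when the list was made. Each of the 9 symbols matched 1 of the 55492 entries of the counts table, and all 9 were among the 20355 entries tested. The cells were dissociated from mouse cortex at embryonic day 18, bought as C57EDCX, and the labels give no transgene or deletion in any group. The control cultures received no drug, the DEX cultures received 1 µM of the glucocorticoid receptor agonist DEX for 72 h, and the DEX + RU-486 cultures received 1 µM DEX with 1 µM of the receptor antagonist RU-486. Each treatment has 12 RNAseq libraries, 6 in each of 2 labelled batches, so there are 36 libraries in all. The paper calls them experimental replicates, and neither it nor the labels say whether they came from separate cultures. The p-values therefore measure the spread between these libraries, which may be technical.

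Projection neurons of the cortex are born in an order that places deep-layer cells before upper-layer cells, and each class switches on its own transcription factors. Cux1, Cux2 and Rorb mark upper-layer neurons, Cux1 and Cux2 through homeodomain and CUT domain proteins and Rorb, a nuclear receptor, mainly in layer IV. In the deep layers Fezf2 and its target Bcl11b (Ctip2) direct subcerebral projection neurons, while Tbr1 directs corticothalamic neurons and represses Fezf2. Sox5 controls the timing of deep-layer fates, Foxp2 marks layer VI neurons, and Tle4 is a corepressor of the corticothalamic class. Several of these genes are also used outside the projection neurons. Bcl11b and Foxp2 are strong in striatal neurons, Bcl11b is present in interneurons, and Sox5 is present in the oligodendrocyte lineage.

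Total counts ranged from 12.4 to 82.4 M in the control libraries, from 12.1 to 29.3 M in DEX and from 13.9 to 36.3 M in DEX + RU-486. The RNA integrity number (RIN) in the labels was under 3 in 6 libraries of batch 2, 2 of each treatment, and under 6 in library 12 (DEX) and library 18 (DEX + RU-486) of batch 1. The other 28 libraries had a RIN of 6 or above, called intact RNA here. In batch 1 the control libraries had 24.2 to 82.4 M counts and a RIN of 7.8 to 9.2, against 12.1 to 22.3 M and 3.9 to 7.8 in DEX, so treatment, depth and RIN cannot be told apart there. The same holds with intact RNA, where the DEX libraries of batch 1 had 12.1 to 15.1 M counts and a RIN of 6.2 to 7.8. Neuronal markers were abundant in every library, with a sum over 6 genes of at least 2343 counts per 1000000 (CPM), and 0 of the 6 striatal neuron markers were at 0 throughout, with a sum of 15.3 to 38.2 CPM. Libraries 35 and 36, both DEX + RU-486 of batch 2 with intact RNA, stood apart from the other intact libraries of that batch: their interneuron marker sum over 7 genes was 140 and 158 CPM, against 403 to 538 CPM in the other 10. In batch 1, library 7 (DEX) and library 13 (DEX + RU-486) had the highest interneuron sums, 302 and 230.5 CPM, against 86.1 to 165 CPM in the controls and 116 to 187 CPM in the other 10 treated libraries. Results that rest on these 4 libraries are therefore also given without them. Across all tested genes, the log2 CPM of each of the 6 libraries of RIN under 3 correlated better with the mean of the intact libraries of batch 1 than with that of their own batch 2, for example at r of 0.920 against 0.892 in library 26. All 28 libraries of intact RNA and the other 2 were nearer to their own batch. Fkbp5 and Tsc22d3, usual targets of the glucocorticoid receptor, did not pass the test in DEX against control, with log2 fold changes of 0.03 ± 0.16 (SE) and 0.26 ± 0.17 (edgeR's quasi-likelihood test, adjusted p = 0.946 and 0.459). Within batches, Tsc22d3 was at 0.64 ± 0.23 in batch 1 (adjusted p = 0.0688) and at -0.07 ± 0.22 in batch 2.

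All 9 factors were detected in every library, at depths that differed widely. Cux2 had 1267 to 13151 counts per library, Tbr1 657 to 7372 and Bcl11b 344 to 3868. Foxp2 was the least deeply counted member, with 7 to 136 counts, followed by Fezf2 with 19 to 238, so single values of these 2 genes carry the largest counting error. Levels of different genes were compared per length, as CPM per kilobase of exon (RPKM), in control libraries of intact RNA. In batch 1 (n = 6) Tbr1 at 12.9 ± 0.779 RPKM (SD) and Cux2 at 12.3 ± 1.61 RPKM were highest and overlapped. Cux1 followed at 5.32 ± 0.651 RPKM and Bcl11b at 2.83 ± 0.278 RPKM, neither of which overlapped its neighbour above. Rorb at 1.94 ± 0.520 RPKM overlapped both Bcl11b and Tle4, which was at 1.64 ± 0.224 RPKM. Sox5 at 0.835 ± 0.088 RPKM and Fezf2 at 0.741 ± 0.353 RPKM overlapped each other, and Foxp2 was lowest at 0.0487 ± 0.0139 RPKM. In batch 2 (n = 4) Cux2 at 12.97 ± 0.445 RPKM and Tbr1 at 12.5 ± 0.846 RPKM were again highest and overlapped. Bcl11b stood above Cux1 there, at 7.17 ± 0.751 against 5.19 ± 0.216 RPKM, Fezf2 stood above Sox5 with overlapping ranges, and the other genes kept their places.

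**Figure D1:**
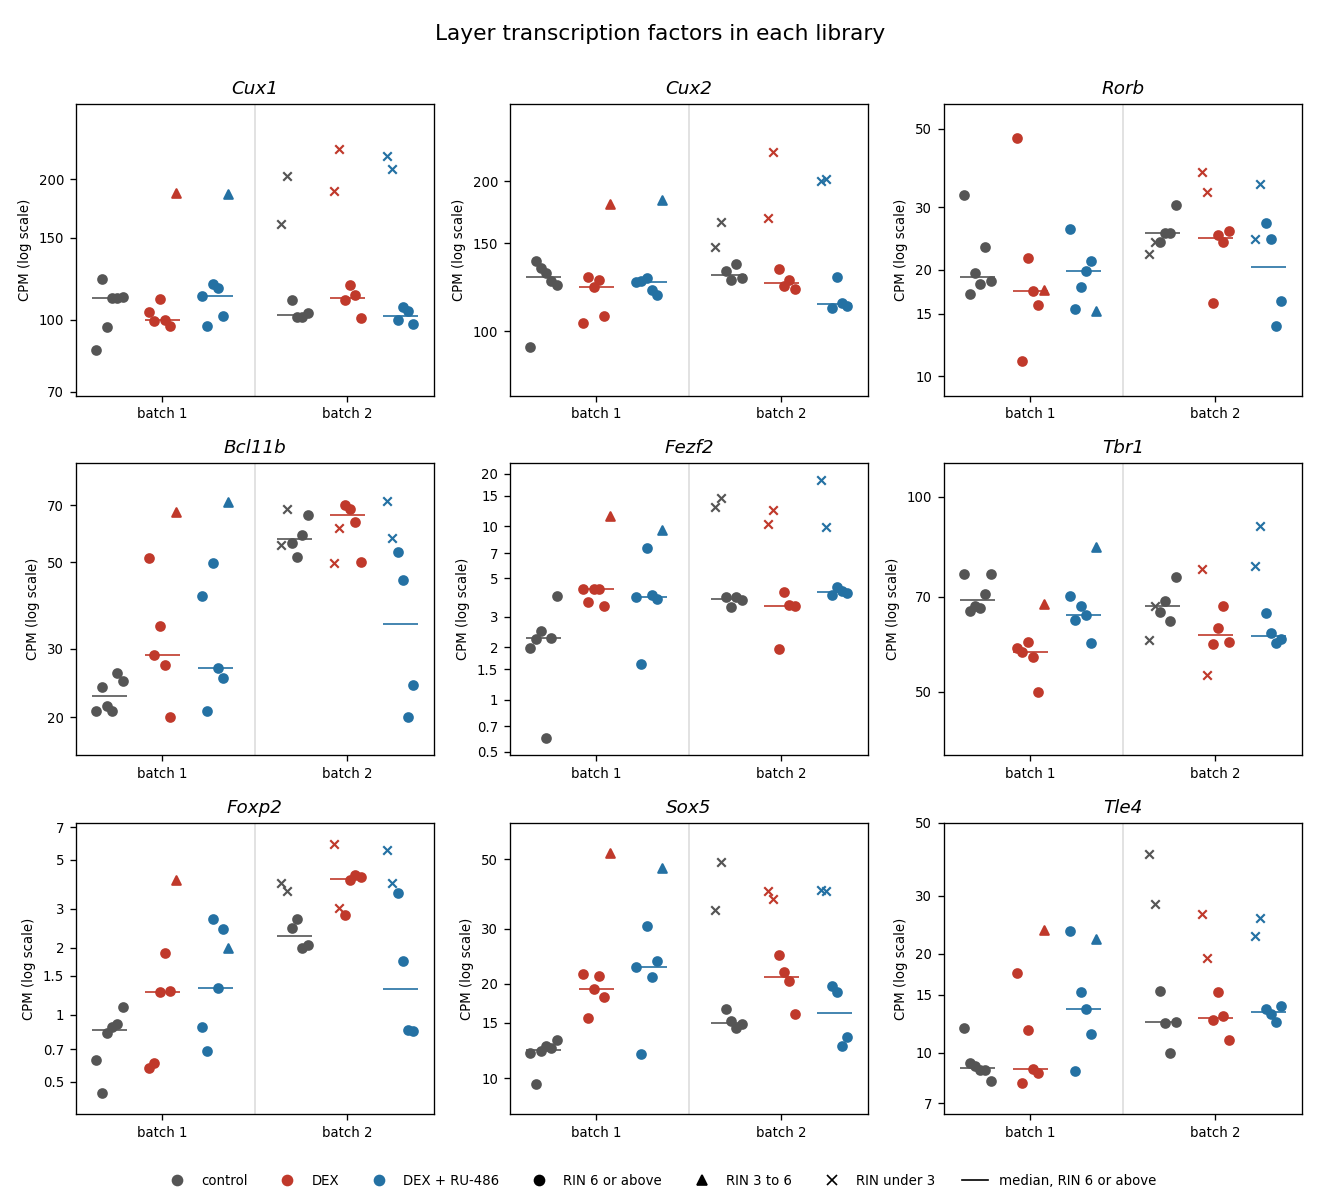
Level of each of the 9 factors in every library (y axis, CPM with TMM factors on a log scale), by batch and treatment on the x axis, with 1 point per library, the shape of the point giving its RIN class and the bar the median of libraries of RIN 6 or above. In batch 2 the low RIN libraries of Fezf2, at 9.92 to 18.4 CPM, lie above all its intact libraries, at 1.96 to 4.45 CPM, whereas for Tbr1 the low RIN libraries lie on both sides of the intact ones.

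Over both batches, with the batch as a covariate, none of the 9 factors passed the test in DEX against control. The share of all 20355 tested genes that passed at an adjusted p under 0.05 was 0.0246%, or 5 genes, by edgeR. DESeq2 called 450 genes, or 2.89% of those it tested, and none of the 9 factors. At an unadjusted p under 0.05 the share of all genes was 16.9%, and 3 of the 9 factors were under it. Foxp2 was 0.75 ± 0.31 higher (log2 fold change ± SE, p = 0.019, adjusted p = 0.199), Sox5 was 0.56 ± 0.25 higher (p = 0.0328, adjusted p = 0.246) and Tbr1 was at -0.18 ± 0.076 (p = 0.0229, adjusted p = 0.215). The other deep-layer factors had log2 fold changes of 0.35 ± 0.21 for Bcl11b, 0.46 ± 0.37 for Fezf2 and 0.08 ± 0.23 for Tle4. Upper-layer factors were near 0, at 0.14 ± 0.16 for Cux1, 0.08 ± 0.12 for Cux2 and 0.05 ± 0.17 for Rorb. The median log2 fold change was 0.405 over the 6 deep-layer factors and 0.0771 over the 3 upper-layer factors, beside -0.0066 over all genes tested. With RIN as a further covariate these medians were 0.13 and -0.0671, beside -0.0082 over all genes. With intact RNA they were 0.36 and -0.0472, beside 0.0119. Restricted to the 28 libraries of intact RNA, the fit called 2 of the 9 factors, Sox5, which rose by 0.58 ± 0.14 (adjusted p = 0.00365), and Tbr1, at -0.24 ± 0.057 (adjusted p = 0.00386). In that fit 19.7% of all genes passed.

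Each batch was then tested on its own within 1 model of all 36 libraries. In batch 1, 8.51% of all genes passed the test in DEX against control, 2.98% higher and 5.53% lower, and 0 of the 9 factors did. At an unadjusted p under 0.05, 4 of the 6 deep-layer factors were higher and 1 was lower, beside 10.8% and 13.1% of all genes, and none of the upper-layer factors was under that threshold. In DEX + RU-486 against control of batch 1, 5.71% of all genes passed and 1 of the 9 factors did, Sox5, in the higher direction, as did 1.99% of all genes. The DEX and DEX + RU-486 comparisons share their 6 control libraries, so their values are set side by side and were not treated as separate evidence.

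Sox5, a SoxD factor of deep-layer neurons, showed the largest difference from control relative to its error in batch 1 with all libraries, in both treated groups. Its control libraries of batch 1 lay between 9.57 and 13.2 CPM with a median of 12.3 CPM. The DEX libraries lay between 15.5 and 52.3 CPM with a median of 20.2 CPM, and those of DEX + RU-486 between 11.9 and 47.0 CPM with a median of 23.2 CPM. Every DEX library was thus above every control library, which was the case in that direction for 3.2% of all genes, whereas 1 DEX + RU-486 library was within the control range. The log2 fold change was 1.04 ± 0.34 in DEX (adjusted p = 0.0514) and 1.12 ± 0.34 in DEX + RU-486, which passed the test (adjusted p = 0.0452). The highest value in each treated group came from its library of low RIN, 12 and 18. With intact RNA alone, the 5 DEX libraries had 21.5, 15.5, 19.2, 21.2 and 18.2 CPM and still lay above all 6 controls, as did 4.29% of all genes. Sox5 then rose by 0.67 ± 0.16 in DEX (adjusted p = 0.00312) and by 0.87 ± 0.16 in DEX + RU-486 (adjusted p = 0.000394). With all libraries and RIN as a further covariate, Sox5 did not pass in DEX, where 2869 of 20355 genes did. In that fit it passed in DEX + RU-486 (edgeR, adjusted p = 0.00669), as did 2655 genes. With 1 library left out at a time, Sox5 passed in 13 of 36 fits for DEX, where the log2 fold change lay between 0.68 and 1.14. For DEX + RU-486 it passed in 21 of 36, between 0.88 and 1.27, and was lost without any of the controls 1 to 6, the DEX libraries 9 and 10, or the DEX + RU-486 libraries 13, 15, 16, 17, 18, 33 and 34 (largest adjusted p = 0.18). Its exons share 9.25% of their bases with Sox5os1 on the opposite strand, and the sources do not state whether strand was used in counting, so reads of the pair cannot be separated.

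In batch 2 the control libraries of intact RNA had 16.6, 15.2, 14.4 and 14.9 CPM of Sox5, the DEX libraries 24.8, 21.8, 20.4 and 15.9 CPM, and the DEX + RU-486 libraries 19.7, 18.8, 12.6 and 13.5 CPM. Of the 4 DEX libraries, 3 were above all 4 controls, and the 2 DEX + RU-486 libraries below the controls were 35 and 36. No test of Sox5 passed in batch 2. The log2 fold change with intact RNA was 0.46 ± 0.19 in DEX (adjusted p = 0.266).

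Tbr1, the T-box factor of corticothalamic neurons, was the only member with a negative log2 fold change in DEX over both batches. In batch 1 its controls lay between 66.7 and 76.0 CPM with a median of 69.2 CPM. The DEX libraries lay between 49.9 and 68.3 CPM with a median of 58.0 CPM, and only library 12, at 68.3 CPM, reached the control range. The DEX + RU-486 libraries lay between 59.4 and 83.7 CPM with a median of 66.7 CPM and overlapped the controls. The log2 fold change in DEX was -0.28 ± 0.11 (adjusted p = 0.100), and in DEX + RU-486 it was -0.05 ± 0.11 (adjusted p = 0.855). With all libraries, the value in DEX moved with the scaling and the covariates. It was -0.17 with upper-quartile factors (adjusted p = 0.402), which moved the median of all genes to 0.127, -0.20 ± 0.11 with DESeq2 (adjusted p = 0.213), and -0.35 ± 0.098 with RIN as a further covariate, where it passed (adjusted p = 0.014). With intact RNA alone the 5 DEX libraries had 58.3, 57.6, 59.5, 56.5 and 49.9 CPM, all below the 6 controls, as were 7.54% of all genes. Tbr1 then fell by 0.33 ± 0.069 (log2, adjusted p = 0.000728) in DEX. In batch 2 the intact controls had 66.4, 69.1, 64.3 and 75 CPM and the DEX libraries 59.3, 62.7, 67.8 and 59.6 CPM. Of these 4 DEX libraries, 3 were below all 4 controls. No test of Tbr1 passed in batch 2. With all libraries its log2 fold change in DEX there was -0.09 ± 0.11 (edgeR, p = 0.433). With intact RNA 0 of the 9 factors were lower there at an unadjusted p under 0.05.

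The promoter windows of the RefSeq annotation are printed for 2 genes, because Sox5 and Tbr1 were the 2 members whose batch 1 groups of intact RNA did not overlap, in opposite directions. Each window runs from 250 bases before to 50 bases after a transcription start on GRCm38.p6, 5′ to 3′ on the strand of the gene. The Sox5 window is at chr6:143947057-143947356 on the minus strand, inside the Sox5 gene (chr6:143828425-144781977), and the Tbr1 window is at chr2:61804203-61804502 on the plus strand. Capitals mark the glucocorticoid receptor half-site, searched as AGAACA or TGTTCT on both strands, and lower case marks the remaining bases.
Sox5: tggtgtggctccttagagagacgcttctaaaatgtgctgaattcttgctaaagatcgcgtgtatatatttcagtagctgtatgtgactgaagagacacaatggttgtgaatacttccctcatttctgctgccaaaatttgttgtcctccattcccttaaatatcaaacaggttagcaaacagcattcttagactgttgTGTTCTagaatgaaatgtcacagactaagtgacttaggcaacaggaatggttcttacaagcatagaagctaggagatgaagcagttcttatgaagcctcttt
Tbr1: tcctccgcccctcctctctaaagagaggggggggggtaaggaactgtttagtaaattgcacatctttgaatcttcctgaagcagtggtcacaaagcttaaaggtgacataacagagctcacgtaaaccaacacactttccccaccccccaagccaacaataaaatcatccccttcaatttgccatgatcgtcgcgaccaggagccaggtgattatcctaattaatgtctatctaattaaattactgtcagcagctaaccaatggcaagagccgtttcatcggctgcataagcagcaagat
The half-site occurred once in the Sox5 window and in none of the other member windows, and 19% of all 32851 RefSeq windows of this length hold it. The full site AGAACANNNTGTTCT, which contains the half-site, was in 3 windows of all and in none of the members'. Of the 9 members 8 were matched, with 11 windows in all, and Foxp2 was not. The Sox site ACAATG was in 1 window each of Sox5 and Cux2, against 12.6% of all windows. The T-box site AGGTGTGA, which overlaps neither of these, was in no member window and in 1.28% of all windows. Base composition differed among the members: the Sox5 window had 39.7% G and C, against a median of 52.7% over all windows, and those of Cux2 had 56.7% and 80.3%. These matches describe letters in the windows only.

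The other deep-layer factors had higher medians in both treated groups of batch 1, and by edgeR none of them passed the test with all libraries. Bcl11b (chr12:107910403-108003602), a zinc finger factor, had 20.8 to 26 CPM in the controls (median 22.6), 20 to 67.5 CPM in DEX (median 31.6) and 20.7 to 71.6 CPM in DEX + RU-486 (median 33.8). Its log2 fold change was 0.74 ± 0.27 in DEX (adjusted p = 0.0843) and 0.77 ± 0.27 in DEX + RU-486 (adjusted p = 0.0848). DESeq2, with all libraries, called both, at 0.81 ± 0.28 (adjusted p = 0.0399) and 0.84 ± 0.28 (adjusted p = 0.0376). The treated libraries thus reached far above the controls, but the lowest of each treated group lay just below the lowest control. With intact RNA Bcl11b was at 0.49 ± 0.23 in DEX and 0.50 ± 0.22 in DEX + RU-486, and without libraries 7 and 13, at 51.4 and 40.9 CPM, it was then at 0.29 ± 0.22 and 0.42 ± 0.22, none of them called. With intact RNA and without libraries 35 and 36 of batch 2, which enter the shared estimate of spread, it passed in both, at 0.55 ± 0.19 (adjusted p = 0.0388) and 0.55 ± 0.19 (adjusted p = 0.0425). Fezf2 (chr14:12342094-12348189), the zinc finger factor upstream of Bcl11b, had 0.599 to 3.96 CPM in the controls (median 2.25), 3.48 to 11.5 CPM in DEX (median 4.33) and 1.61 to 9.46 CPM in DEX + RU-486 (median 3.96). Its log2 fold change was 1.22 ± 0.50 in DEX (adjusted p = 0.122) and 1.14 ± 0.50 in DEX + RU-486 (adjusted p = 0.171). A single control library, at 3.96 CPM, overlapped the DEX range. With intact RNA alone Fezf2 rose by 0.83 ± 0.30 in DEX (adjusted p = 0.0442) and by 0.86 ± 0.30 in DEX + RU-486 (adjusted p = 0.0405). Without libraries 7 and 13 as well, Fezf2 no longer passed in DEX, at 0.82 ± 0.33 (adjusted p = 0.0649).

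Foxp2 (chr6:14901349-15441977), a forkhead factor, had 0.445 to 1.08 CPM in the controls of batch 1 (median 0.853), 0.575 to 4.04 CPM in DEX (median 1.27) and 0.690 to 2.71 CPM in DEX + RU-486 (median 1.66). The log2 fold change was 1.02 ± 0.44 in DEX (adjusted p = 0.143) and 1.06 ± 0.43 in DEX + RU-486 (adjusted p = 0.144), with overlapping groups in both. Without library 12, at 4.04 CPM, the value in DEX was 0.51, and with intact RNA it was 0.50 ± 0.39 in DEX and 0.99 ± 0.37 in DEX + RU-486. Tle4 (chr19:14448150-14598051), the Groucho family corepressor, had 8.21 to 11.9 CPM in the controls (median 8.97), 8.10 to 23.7 CPM in DEX (median 10.3) and 8.77 to 23.4 CPM in DEX + RU-486 (median 14.4). Its log2 fold change was 0.48 ± 0.31 in DEX (adjusted p = 0.346) and 0.75 ± 0.31 in DEX + RU-486 (adjusted p = 0.143). Without library 12 its value in DEX was 0.24. With intact RNA Tle4 rose by 0.63 ± 0.19 in DEX + RU-486 (adjusted p = 0.0205), a call that was lost without libraries 7 and 13 as well, at 0.40 ± 0.15 (adjusted p = 0.0506). Over the 6 deep-layer factors, the median log2 fold change in DEX of batch 1 was 0.877, beside 0.024 over all genes. It was 0.497 with intact RNA, beside 0.0143 over all genes, 0.468 without libraries 7 and 13 as well, beside 0.0469, and 0.463 with all libraries and RIN as a further covariate, beside 0.0342. In that last fit Tbr1 alone of the 9 factors was called, where 14.1% of all genes passed. The numbers called with intact RNA in batch 1 were 3 of 9 for DEX and 3 of 9 for DEX + RU-486, where 23.5% and 18.6% of all genes passed. Without libraries 7 and 13 as well they were 2, Sox5 and Tbr1, and 3, Fezf2, Foxp2 and Sox5, where 25.2% and 20.6% of all genes passed.

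The upper-layer factors differed little between treatments. In batch 1 Cux1 (chr5:136248135-136567490) had medians of 111, 102 and 114 CPM in control, DEX and DEX + RU-486, and Cux2 (chr5:121856366-122050102) had 128, 125 and 126 CPM. Rorb (chr19:18930605-19111196) had medians of 19.1, 17.5 and 18.8 CPM, with a range of 11 to 47.0 CPM in DEX alone. The groups overlapped for each of the 3 genes. Their median log2 fold change in DEX of batch 1 was 0.045, and the smallest adjusted p among them was 0.794. Without libraries 7 and 13, Rorb was at -0.36 ± 0.21 in DEX (adjusted p = 0.298). The highest values of Cux1 and Cux2 in the treated groups came again from libraries 12 and 18, at 187 and 186 CPM for Cux1 and at 180 and 183 CPM for Cux2.

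In batch 2, none of the 9 factors passed the test in either treated group, and neither did any of the 20355 genes by edgeR with all libraries, where 0.0% were called. With intact RNA edgeR called 11 genes in DEX and 0 in DEX + RU-486, and again 0 of the 9 factors. At an unadjusted p under 0.05 the shares of all genes were 3.68% in DEX and 1.67% in DEX + RU-486, and 0 of the 9 factors were under it in either. DESeq2 called 0 genes in DEX and 1 in DEX + RU-486. Foxp2 had the smallest p of the members in DEX, with a log2 fold change of 0.54 ± 0.42 (p = 0.207). Its intact controls had 2.46, 2.70, 2.00 and 2.07 CPM and its intact DEX libraries 2.81, 4.04, 4.28 and 4.18 CPM, so these groups did not overlap, as was the case in that direction for 4.47% of all genes. Fezf2 did not overlap between intact controls, at 3.93, 3.43, 3.90 and 3.75 CPM, and intact DEX + RU-486 libraries, at 4.01, 4.45, 4.20 and 4.11 CPM, although these values lie close together and 2.8% of all genes shared the pattern. Bcl11b had the smallest p in DEX + RU-486, with a log2 fold change of -0.39 ± 0.27 (p = 0.154). Its 4 intact DEX + RU-486 libraries had 53.2, 45.0, 20 and 24.2 CPM, against 56.0, 51.7, 58.7 and 66.2 CPM in the controls, and the 2 lowest were libraries 35 and 36. With intact RNA its log2 fold change was -0.69 ± 0.26 (adjusted p = 0.963), and without these 2 libraries it was -0.23 ± 0.27.

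**Figure D2:**
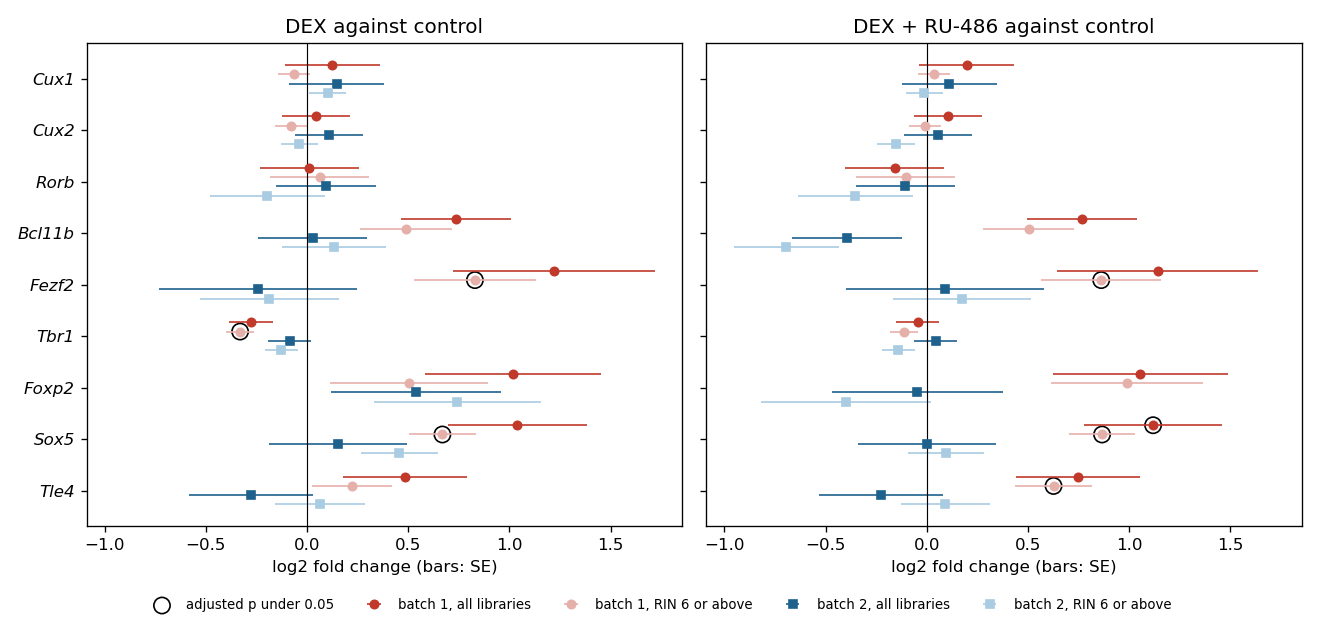
Log2 fold change against control (x axis) of each factor (y axis) in DEX and in DEX + RU-486, by batch, with all libraries and with those of RIN 6 or above, bars of 1 standard error from edgeR and rings for an adjusted p under 0.05. In batch 1 with all libraries the 5 deep-layer factors other than Tbr1 lie between 0.48 and 1.22 in DEX, and in batch 2 with all libraries every bar crosses 0 except Foxp2 in DEX and Bcl11b in DEX + RU-486. With intact RNA more bars of batch 2 clear 0, among them Sox5 in DEX, and none of them has a ring.

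The difference between batches in the treatment effect was tested as an interaction, and none of the 9 factors passed with all libraries. Of all genes, 0.172% passed for the DEX effect and 0.0835% for the DEX + RU-486 effect. At an unadjusted p under 0.05 these shares were 12.9% and 11.9%, and 1 and 3 of the 9 factors were under it. The smallest p was that of Bcl11b in DEX + RU-486, where the effect in batch 2 minus that in batch 1 was -1.16 ± 0.38 (p = 0.00459, adjusted p = 0.187). Without libraries 35 and 36 it was -0.81 ± 0.35 (adjusted p = 0.477), and with intact RNA and without libraries 7 and 13 it was -1.12 ± 0.32 and passed (adjusted p = 0.045), as did 3.72% of all genes. With intact RNA and without 35 and 36 it was -0.79 ± 0.33 (adjusted p = 0.482). With all libraries Sox5 followed with -1.12 ± 0.48 (p = 0.0257, adjusted p = 0.341) and Tle4 with -0.97 ± 0.43 (p = 0.0306, adjusted p = 0.359). Without libraries 35 and 36 these were -0.80 ± 0.48 and -0.80 ± 0.46, and Bcl11b alone of the 9 was under an unadjusted p of 0.05. For the DEX effect only Fezf2 was under that p, at -1.46 ± 0.70 (p = 0.0434, adjusted p = 0.370).

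RU-486 blocks the receptor that DEX activates, so DEX + RU-486 was also set against DEX. None of the 9 factors passed, and edgeR called 0.0% of all genes, with 2.68% under an unadjusted p of 0.05. DESeq2 called 2 genes. Tbr1 was the only member under an unadjusted p of 0.05, with 0.18 ± 0.076 (log2, p = 0.0242, adjusted p = 1.00) over both batches and 0.23 ± 0.11 (p = 0.0378) in batch 1. Against control over both batches, DEX + RU-486 called 0 factors and 0.0% of genes by edgeR, with 10.8% of all genes under an unadjusted p of 0.05 and 98 genes called by DESeq2. Sox5 was the only member under that p, at 0.54 ± 0.26 (p = 0.041, adjusted p = 0.440), and it passed with intact RNA, at 0.55 ± 0.14 (adjusted p = 0.0134), as did 8.86% of all genes.

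Other genes of the same programme were read from lists of names that exclude the members. In DEX of batch 1 their counts stand beside 2.98% of all genes higher and 5.53% lower, and their medians beside 0.024 over all genes. Among 12 upper-layer genes, 0 rose and 1 fell in DEX of batch 1, Mdga1, at -0.61 ± 0.19 (adjusted p = 0.038), and the median of the list was -0.34. Among 14 tested deep-layer and subplate genes, 1 rose, the nuclear receptor gene Nr4a2, by 1.72 ± 0.55 (adjusted p = 0.046), and the median was 0.31. Library 7 had 62.8 CPM of Nr4a2, where the controls had 3.75 to 11.8 CPM. Without libraries 7 and 13 neither Nr4a2, at 1.00 ± 0.50 (adjusted p = 0.214), nor Mdga1, at -0.46 ± 0.16 (adjusted p = 0.0714), passed, and 2 other upper-layer genes did, Inhba at -0.76 ± 0.19 and Nectin3 at -0.67 ± 0.20 (adjusted p of at most 0.0283). With intact RNA both Nr4a2, at 1.72 ± 0.44 (adjusted p = 0.00435), and Mdga1, at -0.58 ± 0.18 (adjusted p = 0.0163), passed, as they did without libraries 7 and 13 as well, at 0.75 ± 0.25 (adjusted p = 0.0288) and -0.39 ± 0.13 (adjusted p = 0.0279). Among 15 genes listed as regulators of projection neuron identity, 3 fell. These were the transcription factor genes Neurod6, at -0.43 ± 0.12, and Bcl11a, at -0.54 ± 0.16, and Dcx, at -0.91 ± 0.16, which encodes a microtubule protein of young neurons and is no transcription factor (adjusted p of at most 0.029). The median of that list was -0.06, with 7 values above 0 and 8 below. Among 8 progenitor genes, 2 rose, Sox2 by 1.31 ± 0.33 and Nes by 2.08 ± 0.66, with a list median of 1.73 (adjusted p of at most 0.041). With intact RNA 8.82% of all genes were called higher and 14.6% lower, and the lists held more calls. The upper-layer genes that fell included Lhx2, Lmo4, Mdga1 and Plxnd1, and of the deep-layer genes Nr4a2 rose and 3 fell (Etv1, Ldb2 and Ntsr1). Of the regulators Sox4 rose and 4 fell, and of the progenitor genes 5 rose. In DEX + RU-486 of batch 1, Mdga1 and Dcx fell again, by 0.62 ± 0.19 and 0.65 ± 0.16, Eomes rose by 2.33 ± 0.70 (adjusted p of at most 0.043), and no deep-layer gene of the list passed, beside 1.99% of all genes higher and 3.72% lower. With intact RNA the deep-layer genes Nr4a2 and Crym rose there, by 1.38 ± 0.43 and 1.17 ± 0.41, and Etv1 fell by 0.50 ± 0.14 (adjusted p of at most 0.0454), beside 7% higher and 11.6% lower. Without libraries 7 and 13 as well, Nr4a2 rose and Ntsr1 and Rprm fell, beside 8.11% higher and 12.4% lower. With all other libraries but 7 and 13 Mdga1 did not pass there either, at -0.52 ± 0.16 (adjusted p = 0.0513). Over both batches none of the lists held a gene that passed in DEX against control, and the smallest p of each belonged to Plxnd1 (-0.39 ± 0.16), Ldb2 (-0.51 ± 0.17), Dcx (-0.49 ± 0.14) and Hes5 (1.60 ± 0.54).

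Markers of other cells moved in the same comparison, in which 2.98% of all genes were called higher and 5.53% lower. In batch 1 the sum of 7 oligodendrocyte lineage markers was 61.1 to 276 CPM in the controls, 465 to 2118 CPM in DEX and 215 to 913 CPM in DEX + RU-486, and 5 of the 7 markers rose in DEX, among them Mbp by 2.59 ± 0.52. The highest sums were those of libraries 12 and 18, and with intact RNA the treated groups reached 749 and 627 CPM. Of 6 astrocyte markers Gfap and Gja1 rose, with a summed level of 27.4 to 43.2 CPM in the controls and 28.7 to 60.9 CPM in DEX. Of 6 neuron markers 3 fell, Rbfox3, Stmn2 and Tubb3, and their sum was 3334 to 4278 CPM in the controls against 2495 to 3363 CPM in DEX. Of 6 excitatory neuron markers Grin2b and Neurod6 fell, while 0 of the 7 interneuron markers and 0 of the 6 striatal markers passed. Of 3 dividing cell markers 1 rose in DEX, and 2 did without libraries 7 and 13. Their sum was 2.15 to 12.4 CPM in the controls and 7.89 to 58.96 CPM in DEX, or up to 20.7 CPM with intact RNA. With intact RNA 6 of 7 oligodendrocyte lineage markers rose and all 6 neuron markers fell, beside 8.82% of all genes higher and 14.6% lower. Without libraries 7 and 13 and with all others, 5 of 7 oligodendrocyte lineage markers rose, and Gja1 and Tubb3 no longer passed. In DEX + RU-486 of batch 1, 2 of 7 oligodendrocyte lineage and 2 of 6 astrocyte markers rose. There 2 of 6 neuron and 1 of 6 excitatory neuron markers fell, beside 405 of all 20355 genes higher and 758 lower. With intact RNA 4 oligodendrocyte lineage and 2 astrocyte markers rose there and 5 neuron markers fell, beside 7% of all genes higher and 11.6% lower. None of these marker lists had a gene at 0 in every library. In bulk RNA, fewer cells of a type and less RNA per cell cannot be told apart, and the part of these markers in the values of Sox5, Tbr1 and the other factors was not tested.

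The control libraries of the batches were also compared with each other. In batch 2 against batch 1, 5 of the 9 factors were higher and passed with all libraries, all of them deep-layer, and 23.7% of all genes passed, 12% in the higher direction. Bcl11b was at 51.7 to 68.4 CPM in batch 2 against 20.8 to 26 CPM in batch 1, without overlap, as for 6.41% of all genes, and its log2 difference was 1.37 ± 0.27 (adjusted p = 0.000681). Foxp2 was at 2.00 to 3.92 against 0.445 to 1.08 CPM, also without overlap, with a log2 difference of 1.79 ± 0.44 (adjusted p = 0.00362). These 2 genes passed in all 36 fits that left out 1 library, and with intact RNA, where Bcl11b was 1.32 ± 0.23 and Foxp2 1.51 ± 0.38 higher and 33% of all genes passed.

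The other 3 rested in part on the 2 control libraries of low RIN, 19 and 20. Fezf2 was 1.62 ± 0.50 higher (adjusted p = 0.0183), Tle4 1.07 ± 0.31 (adjusted p = 0.0119) and Sox5 0.99 ± 0.34 (adjusted p = 0.0331). With intact RNA none of them passed, at 0.71 ± 0.31 for Fezf2 (adjusted p = 0.0761), 0.40 ± 0.20 for Tle4 (adjusted p = 0.126) and 0.32 ± 0.17 for Sox5 (adjusted p = 0.143). Tle4 passed when the fit also left out the treated libraries 7 and 13, at 0.44 ± 0.14 (adjusted p = 0.0176). Without library 19, Tle4 and Fezf2 no longer passed, and Fezf2 did not without library 20 either, with lowest values of 0.71 and 1.27 (adjusted p = 0.077 and 0.072). Sox5 was lost without any of the controls 1, 2, 3, 4, 5, 19 and 20, and its lowest value was 0.65 (adjusted p = 0.167), although its batch 2 controls, at 14.4 CPM or more, did not overlap those of batch 1. Cux1 was at 0.29 ± 0.23, Cux2 at 0.16 ± 0.17, Rorb at 0.23 ± 0.25 and Tbr1 at -0.07 ± 0.11, and none of these 4 passed. The median over all genes tested was itself 0.119 in this comparison, and 0.215 with DESeq2 and 0.291 with upper-quartile factors. Of the other upper-layer genes 1 rose and 6 fell, among them Lmo4 at -1.54 ± 0.20, and of the other deep-layer genes 3 rose and 4 fell. All 7 interneuron markers were higher and 6 passed, 6 of 7 oligodendrocyte lineage markers rose, and 5 of 6 neuron markers fell. In the intact controls the interneuron sum was 86.1 to 165 CPM in batch 1 and 419 to 535 CPM in batch 2, and the striatal sum 28.2 to 38.2 and 27.6 to 30.4 CPM, and the part of either in the Bcl11b and Foxp2 values was not tested.

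Many genes of all kinds differed with RNA integrity, the factors among them. Within batch 2, with treatment as a covariate, 6 of the 9 factors were higher in the 6 libraries with a RIN of 1.4 to 2.7 than in the 12 with a RIN of 7.4 or above, where 55.2% of all genes passed and 28.4% were higher. These 6 libraries are also those whose levels across genes lay nearer to batch 1, so RNA integrity and that shift cannot be told apart. Fezf2 was higher by 1.78 ± 0.15 (adjusted p = 2.69e-09), Sox5 by 1.20 ± 0.12 (adjusted p = 3.49e-08), Tle4 by 1.04 ± 0.12 (adjusted p = 4.25e-07) and Foxp2 by 0.78 ± 0.28 (adjusted p = 0.0216). Both Cux genes were also higher, Cux1 by 0.92 ± 0.074 (adjusted p = 1.62e-09) and Cux2 by 0.55 ± 0.086 (adjusted p = 1.3e-05). Bcl11b at 0.26 ± 0.18, Rorb at 0.33 ± 0.15 and Tbr1 at 0.12 ± 0.092 did not pass by edgeR with TMM factors. DESeq2 also called Rorb, where 12046 of 20320 genes passed. Upper-quartile factors also called Rorb and Tbr1, where 11384 of 20355 genes passed. In the 6 low RIN libraries Fezf2 had 12.9, 14.4, 10.3, 12.4, 18.4 and 9.92 CPM, all above the highest of the 12 intact libraries, 4.45 CPM, as for 8.03% of all genes. Sox5 had 34.5, 48.9, 39.6, 37.2, 39.8 and 39.6 CPM, above the highest intact value of 24.8 CPM. Cux1, Cux2 and Tle4 did not overlap between low RIN and intact libraries either. The neuron marker sum was 5645 to 9864 CPM in the low RIN libraries and 2343 to 2705 CPM in the intact ones. Its members went both ways: of the 6 markers 4 were called higher and 2 lower, with a median log2 difference of 0.328. The excitatory neuron sum overlapped, at 835 to 1377 CPM against 822 to 1124 CPM. The interneuron sum was 84.9 to 109 CPM against 140 to 538 CPM, with all 7 markers called lower.

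**Figure D3:**
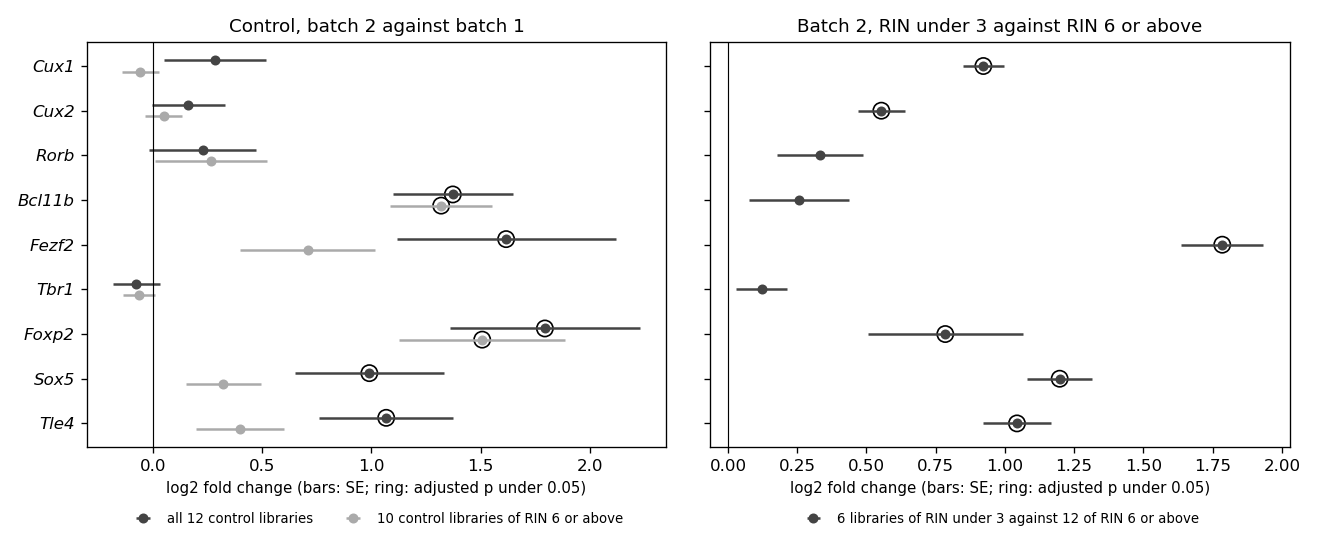
Log2 difference (x axis) of each factor (y axis) between batch 2 and batch 1 controls, with all libraries and with intact RNA, and between low RIN and intact libraries within batch 2, with bars of 1 standard error and rings for an adjusted p under 0.05. Bcl11b and Foxp2 keep their batch difference with intact RNA (1.32 and 1.51), whereas Fezf2, Sox5 and Tle4 are at 0.71, 0.32 and 0.40, and these 3 have low RIN differences of 1.04 or more.

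Once the mean of each batch and treatment was taken away, the factors varied together over all libraries and less so with intact RNA. Over 36 libraries, the median Pearson r of log2 CPM over the 36 pairs of members was 0.528, with a range from 0.0369 to 0.919. Cux1 and Cux2 had the highest r. Pairs of deep-layer factors had a median r of 0.548, beside 0.504 for pairs of an upper-layer with a deep-layer factor. Sox5 followed Cux1 with an r of 0.889, although the genes belong to different layers. Rorb stood apart over all libraries, with a median r of 0.24 in its 8 pairs against 0.552 in the 28 pairs without it. In the 28 libraries of intact RNA it did not, at 0.288 against 0.281. There the median over all pairs was 0.281, Cux1 and Cux2 were at 0.536, and Cux2 and Rorb were at -0.54. The deep-layer pairs there had a median of 0.361, and the pairs of an upper-layer with a deep-layer factor 0.172. The pairs of a library share its depth and RIN, so these values are descriptions without a test. No median over pairs of all tested genes is given beside them, so the likeness is not shown to be particular to the factors.

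**Figure D4:**
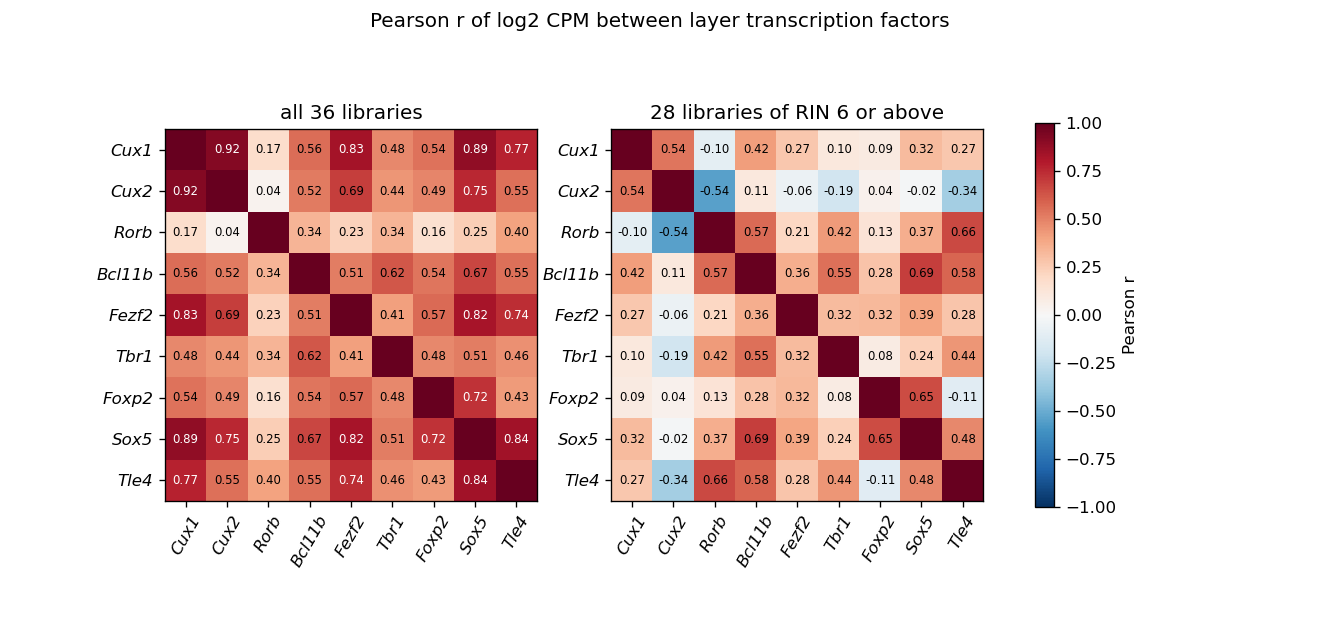
Pearson r of log2 CPM between each pair of the 9 factors after the mean of each batch and treatment was removed, over all 36 libraries and over the 28 of intact RNA, with colour giving r. The median r is 0.528 in the first and 0.281 in the second, and only pairs with Rorb fall below 0.41 in the first.

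Outside the members, the tested gene most like each factor over 36 libraries was Kif26b for Cux1 (r = 0.948), Ttc28 for Cux2 (r = 0.943) and Fam196a for Rorb (r = 0.802). For the deep-layer factors it was Sipa1l2 for Bcl11b (r = 0.891), Rgs3 for Fezf2 (r = 0.862), Gm17815 for Tbr1 (r = 0.73), Ahnak for Foxp2 (r = 0.809), Gatad2a for Sox5 (r = 0.932) and Plcl1 for Tle4 (r = 0.901). With intact RNA every one of these nearest genes was a different one, for example Stat3 for Tle4 (r = 0.845) and Setbp1 for Sox5 (r = 0.895).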

How the data were processed

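RNAseq libraries of primary mouse cortical cells were used, 12 each of control, DEX and DEX + RU-486. The authors deposited 1 table of counts, whole numbers of reads per gene and library, without normalization. Per the labels and methods, reads were aligned with HISAT2 2.1.0 and counted with Subread 1.5.0-p2 on GRCm38. Which of 2 described alignments the table holds, and whether strand was used, are not given in the sources used here. The labels give poly(A) selection and the paper a total RNA library. All columns matched a library, and 0 columns of other samples were left unused.

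Symbols, coordinates and exon lengths came from GENCODE M21 on GRCm38 (55141 of 55492 entries matched), and promoter windows from RefSeq on GRCm38.p6. Tests covered entries with a mean count above 5 and ran in edgeR 4.0.16 on R 4.3.3 (TMM, quasi-likelihood test, Benjamini-Hochberg adjustment over 20355 genes, adjusted p under 0.05). The fit over both batches had the batch as a covariate, the fits by batch had 1 mean per batch and treatment, and the RIN fit used batch 2 with treatment as a covariate. A standard error is the log2 fold change divided by the square root of F. CPM used TMM factors, and log2 CPM a prior count of 2. DESeq2 1.42.0 was an alternative. Figures were drawn with matplotlib 3.10.9.

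The members and gene lists were chosen with earlier results of these data known. Named genes are all members, Fkbp5 and Tsc22d3, of each list the genes that passed (or the 4 with the smallest p, or 1 if none passed), and the gene most like each member. Setbp1 and Stat3 were named under the same rule in the libraries of intact RNA. Counts of the 90 pairs of libraries within a batch and treatment differed by at least 6.09 times the sampling noise (chi-square per degree of freedom), so none was a duplicate. Depth per library was 12.1 to 82.4 M counts. Alternatives were 78 listed choices, and 5 added after seeing the data, which leave out libraries 35 and 36 or libraries 7 and 13.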

Additional observations from a re-analysis of the deposited data

Results flagged for a closer look

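In 8 of 54 tests of a member in 1 treatment of 1 batch, a single library lay far from the other 5, and chance gives about 1 in 20. By the same measure this was so in 14.8% of the members' tests and in 11.8% of those over all tested genes, and the tests share libraries, so they are not independent. Of these, 5 were libraries 12 and 18, the 2 of batch 1 with a RIN under 6. Library 12 (DEX, RIN 3.9) had 187 CPM of Cux1 against 97.0 to 111 CPM in the others, 11.5 CPM of Fezf2 against 3.48 to 4.36 CPM, and 52.3 CPM of Sox5 against 15.5 to 21.5 CPM. Library 18 (DEX + RU-486, RIN 5.6) had 186 CPM of Cux1 against 96.8 to 119 CPM and 183 CPM of Cux2 against 118 to 128 CPM. The other 3 were controls of batch 1. Library 1 had 93.0 CPM of Cux2 against 124 to 138 CPM and 11.9 CPM of Tle4 against 8.21 to 9.30 CPM, and library 2 had 9.57 CPM of Sox5 against 12 to 13.2 CPM. None of the 18 interaction tests, of a treatment effect in batch 2 against that in batch 1, passed with all libraries.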

How the results depend on the processing

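No paired analysis was run, because the library numbers run from 1 to 36 and no number is shared between groups. Whether the order of libraries within a group marks a block was not tested. Beside a number of factors called, the percentage is the share of all genes called in that fit. Over 1008 member values under another setting, 137 changed sign, and none of these was called in either fit. With 1 library left out, 142 of 2916 did, again none of them called. The number of factors called in DEX against control, 0, was 2 with intact RNA (19.7%), with intact RNA without libraries 35 and 36 (18.8%), and with batch 1 alone (19%), and 0 to 1 with 1 library left out (Sox5, 0.777, adjusted p = 0.0342, without control 20). In DEX + RU-486 against control, 0, it was 1, 1 and 2 under these settings (8.86%, 9.64% and 15.4%). With intact RNA without libraries 7 and 13 the numbers were 2 (20.5%) in DEX, 1 (9.25%) in DEX + RU-486, 2 (25.2%) and 3 (20.6%) in these groups of batch 1, and 1 (3.72%), Bcl11b, for the DEX + RU-486 effect in batch 2 against batch 1, which was 0. In DEX of batch 1, 0, it was 2 with DESeq2 (11.7%), 3 with intact RNA (23.5%), 4 with intact RNA without 35 and 36 (21.3%), 1 with RIN as a covariate (14.1%), 2 with the batch alone (19%), 1 without 35 and 36 (8.9%), and 0 to 2 with 1 library left out. In DEX + RU-486 of batch 1, 1, it was 2 with DESeq2 (9.76%), 3 with intact RNA (18.6%), 5 with intact RNA without 35 and 36 (16.9%), 2 with the batch alone (15.4%), and 0 to 2 with 1 library left out. The 5 factors of the control batches were 2 with intact RNA (33%) and with RIN as a covariate (29.1%). The median r of 0.528 was 0.281 with intact RNA and 0.273 without 35 and 36 as well. Some log2 fold changes changed sign, most of them near 0 and none of them called. In DEX against control with RIN as a covariate these were Cux1 (-0.0815), Cux2 (-0.0671), Rorb (-0.0524) and Tle4 (-0.124). With intact RNA they were Cux2 (-0.0584) and Rorb (-0.0472). These 2 were at -0.0285 and -0.0183 with intact RNA without 35 and 36. With intact RNA without 7 and 13 they were at -0.015 and -0.27. Rorb was at -0.107 without 7 and 13, and Tle4 at -0.253 in batch 2 alone. Fezf2, which was not near 0 over both batches at 0.46, was at -0.217 in batch 2 alone. Rorb ranged from -0.116 to 0.131 and Tle4 from -0.0207 to 0.298 with 1 library left out. Tbr1 in DEX + RU-486 of batch 1 was 0.0135 with DESeq2. Between control batches Cux1 was -0.221 with RIN as a covariate and -0.0566 with intact RNA, Cux2 -0.115 with RIN as a covariate, and Tbr1 0.0179 with DESeq2 and 0.0946 with upper-quartile factors. The cause of these shifts was not tested. Low counts limit Foxp2 and Fezf2 in particular.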

Other observations

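Libraries 1, 7 and 13 of batch 1, 1 of each treatment, had the highest Rorb of their groups, at 32.5, 47.0 and 26.1 CPM, where the other libraries of these groups lay between 11 and 23.2 CPM. Cux2 was at 93.0 and 104 CPM in libraries 1 and 7, the lowest of their groups, and at 125 CPM in library 13, within its group. Tle4 was also highest in libraries 1 and 13, at 11.9 and 23.4 CPM, and at 17.5 CPM in library 7 it was second to library 12. These values were noticed after the data were seen and were not tested.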
